A study of Schizosaccharomyces pombe with 127 samples.

Results

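The genes described here are 7 Schizosaccharomyces pombe genes of the osmotic, trehalose and general stress response: gpd1, tps1, ntp1, cta3, zym1, ish1 and rds1. They were taken by name, as a set that belongs together by function, from the 4929 genes and unnamed features of the arrays. All 7 were found, each with 2 probes and a value on all 127 arrays. The loci are SPBC215.05 for gpd1, SPAC328.03 for tps1, SPBC660.07 for ntp1, SPBC839.06 for cta3, SPAC22H10.13 for zym1, SPBC365.12C for ish1 and SPAC343.12 for rds1. The gpd1, ntp1, cta3 and ish1 genes lie on chromosome II, and tps1, zym1 and rds1 on chromosome I. None of the 7 genes is deleted in any strain.

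The study measured fission yeast strains that each lack 1 gene, nearly all of them kinase genes, grown in minimal medium at 30 °C to an OD600 of about 0.3. The groups were 62 deletion strains after 60 min without nitrogen, 63 deletion strains at 0 min with nitrogen, the wild type after 60 min and the wild type at 0 min, with 1 array for each strain and time. The RNA of each culture, in Cy5, was hybridised against a pool of wild-type RNA in Cy3. A level below is the log2 ratio of the strain over that pool with the array's median set to 0, averaged over a gene's 2 probes, and a change is the level at 60 min minus the level at 0 min under the same strain label. Strains are called by the current name of the deleted gene: srb10, gsk3 and pmk1 stand for the labels prk1, skp1 and spm1, by synonym, and strains labelled by a locus, such as gad8, vps15, atg1 and ssp2, bear that locus's gene name. The sources used here do not give the strains' mating type, markers or alleles. A level compares a gene with itself in the pool, so levels of different genes do not show which transcript is more abundant. Each culture was measured whole, so fewer cells with a transcript and less transcript per cell cannot be told apart.

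Fission yeast answers osmotic, oxidative and nutritional stress through a mitogen-activated protein kinase (MAPK) cascade in which the kinases Wis4 and Wis1 act above the MAPK Sty1, and Sty1 acts on the transcription factor Atf1. Many targets of this cascade are also held down by cyclic AMP and protein kinase A, in whose pathway adenylate cyclase (cyr1), the regulatory subunit of the kinase (cgs1) and the transcription factor Rst2 act. Glycerol and trehalose, the compounds made by the products of gpd1 and tps1, protect cells against loss of water and against heat, and trehalose also serves as a store of carbon.

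The starvation itself was visible on every deletion array: the level of isp6, a vacuolar protease gene used as a marker of nitrogen starvation, was between 4.07 and 5.94 at 60 min and between -0.60 and 0.97 at 0 min. Arrays at 60 min resembled each other over all probes, with correlations between 0.65 and 0.97, whereas 9 of 1953 pairs of 0 min arrays correlated below -0.3, the lowest at -0.42. The direction was kept as the dye labels give it. In 6 strains (atf1, byr1, cdk11, ppk22, ppk33 and srb10) the level of the deleted gene ranked lowest among the strains at 0 min but not at 60 min, so their 60 min labels are in doubt. Whether both arrays hold the same strain cannot be told for cdk11, ppk22, ppk33 and srb10. All 6 are called labelled below where a 60 min array enters. Under the label byr1 the byr1 gene was at -2.77 at 0 min and -0.26 at 60 min. That 60 min array had the atf1 gene at -3.79, where the next lowest array had it at 0.79. Under the label atf1 the atf1 gene was at -4.17 at 0 min and 1.37 at 60 min, where pap1 was at -4.61. The arrays under each of these 2 labels thus do not show the same gene lost. A change given for them is not taken as that of 1 strain. The wis1 gene was at -0.34 at 60 min and 0.11 at 0 min in the strain labelled wis1, inside the range of the other strains. The wis4 gene ranked lowest in wis4 at both times. It was at -0.42 at 60 min, beside -0.23 in the next lowest array, and at -2.05 at 0 min, beside -0.51. The label wis4 is thus less clearly borne out at 60 min. The 60 min wild-type array was grouped by its title, although another field calls it a kinase deletion. The array numbers of 56 strains form 1 main series, and those of the other 6 with both times, cyr1, cgs1, rst2, ppk18, ppk27 and ppk32, lie apart from it, so for these 6 array series and genotype cannot be told apart. The 0 min wild-type array, titled nr2, is outside the main series and the 60 min one inside it, so the wild-type values of the 2 times come from different array series.

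Nitrogen starvation was followed by higher levels of 6 of the 7 genes. By limma paired by strain, with Benjamini-Hochberg adjustment over all 4929 features and a minimum of 2-fold, zym1, ish1, cta3, ntp1, tps1 and gpd1 rose, and rds1 stayed under 2-fold. Over all genes 7.53% were called higher by this rule and 16.3% in either direction. The median change of the 7 genes was 2.13, beside 0.04 for all genes. Zym1, ish1, ntp1 and tps1 were higher at 60 min in every one of 62 strains, as were 12.1% of all genes. Without the 6 strains with doubted 60 min labels the changes were between 0.84 for rds1 and 3.23 for ish1, and the same 6 genes were called. With quantile normalization between arrays, which gives 0 min and 60 min arrays the same spread, the changes of gpd1 and tps1 were 0.64 and 0.77, under 2-fold, and that of rds1 was 0.17 (limma adjusted p = 0.127).

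**Figure D1:**
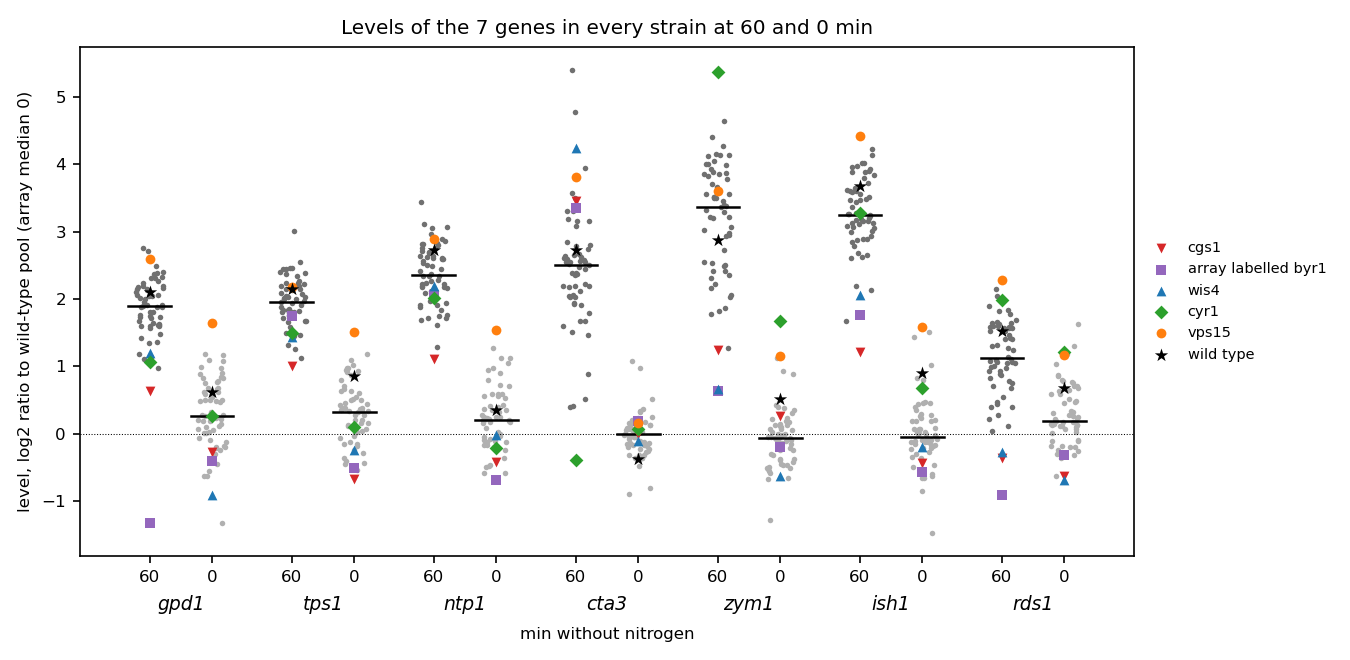
Levels of the 7 genes (vertical axis, log2 ratio of the strain over the wild-type pool, array median 0) on every array, at 60 min on the left and at 0 min on the right of each pair; each grey point is 1 deletion strain, the bar is the median of the deletion strains, and coloured symbols mark single strains and the wild type. The array labelled byr1 has gpd1 at -1.32 at 60 min, below all other strains, and the cyr1 strain has the lowest cta3 and the highest zym1 at 60 min.

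Gpd1 encodes the glycerol-3-phosphate dehydrogenase that begins glycerol synthesis under osmotic stress. Its level had a lowest value of -1.32, a median of 1.90 and a highest value of 2.76 at 60 min, against a lowest value of -1.32, a median of 0.27 and a highest value of 1.65 at 0 min. The ranges overlapped: 19 of 62 arrays at 60 min did not exceed the highest array at 0 min. The mean change was 1.51 ± 0.68 (SD, n = 62 strains), a 2.86-fold rise with a limma adjusted p of 9.46e-27, and 61 of 62 strains were higher at 60 min. The exception was the strain labelled byr1, with -1.32 at 60 min and -0.40 at 0 min, a change of -0.92. The byr1 gene was at -2.77 on its 0 min array and at -0.26 on its 60 min array, where atf1 was low, so this change may not be that of 1 strain. The middle of the distribution was compact, with quartiles of 1.61 and 2.16 at 60 min, so the lowest array stood far from the rest. After it came cgs1 at 0.64 and fin1 at 0.97, and the highest were lkh1, a LAMMER kinase strain, at 2.76, gcn2 at 2.71 and vps15 at 2.59. At 0 min the lowest were the strain labelled atf1 at -1.32, wis4 at -0.91 and spk1 at -0.63, and the highest were vps15 at 1.65, srb10 at 1.18 and gcn2 at 1.17. The lowest strains at 0 min thus included 2 of the stress MAPK pathway. The largest changes were 3.13 between the arrays labelled atf1, 2.65 in mak3 and 2.49 in the strain labelled ppk33. The smallest after that of byr1 were 0.58 in lsk1 and 0.66 in ssp2. The wild type had gpd1 at 2.10 at 60 min and 0.62 at 0 min, inside both ranges.

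Tps1, the trehalose-6-phosphate synthase gene, and ntp1, the gene of the neutral trehalase that breaks trehalose down, rose together. For tps1 the lowest, median and highest levels were 1.00, 1.96 and 3.004 at 60 min, against -0.67, 0.33 and 1.52 at 0 min. The ranges overlapped in part, with 9 of 62 arrays at 60 min not above the highest array at 0 min. The change was 1.66 ± 0.54 (SD, n = 62), a 3.16-fold rise with a limma adjusted p of 1.66e-34. Ntp1 had a lowest level of 1.11, a median of 2.36 and a highest level of 3.45 at 60 min, against -0.69, 0.20 and 1.54 at 0 min. Its times overlapped in fewer arrays than those of tps1, 2 of 62. The change of ntp1 was 2.13 ± 0.60 (SD, n = 62), a 4.37-fold rise with a limma adjusted p of 2.46e-38. By the average of their 2 probes both genes were lowest at 60 min in cgs1. Chk1 (1.13) and rst2 (1.27) came next for tps1, and rst2 (1.29) and fin1 (1.61) for ntp1. Both were highest in lkh1, followed by ppk11 (2.54) and mak3 (2.47) for tps1 and by mak3 (3.12) and ppk25 (3.07) for ntp1. On the first and second probe the lowest strains of tps1 at 60 min were rst2 (0.78) and wis1 (0.91). For ntp1 they were cgs1 (1.23) and rst2 (0.90).

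At 0 min the strain order of the trehalose genes was similar for both. The highest strain was vps15, which lacks the regulatory kinase of the phosphatidylinositol 3-kinase Vps34, at 1.52 for tps1 and 1.54 for ntp1. It was followed by ppk26 (1.19) and atg1 (1.10) for tps1 and by lsk1 (1.28) and ppk16 (1.12) for ntp1. The lowest were cgs1 (-0.67), hal4 (-0.54) and the strain labelled byr1 (-0.51) for tps1, and byr1 (-0.69), rst2 (-0.58) and ppk13 (-0.58) for ntp1. The levels of the pair correlated over strains with r = 0.91 at 0 min (n = 63) and 0.75 at 60 min (n = 62), the first being the highest of the 21 pairs that the 7 genes form at that time. The spread of tps1 over strains was an SD of 0.37 at 60 min and 0.48 at 0 min, while the median SD of all genes was 0.25 at 60 min and 0.24 at 0 min. The smallest changes of tps1 were 0.66 in vps15, 0.78 in that labelled ppk22 and 0.83 in ppk16, and the largest 2.71 in mak3, 2.70 in ppk11 and 2.67 in hhp1. Ntp1 changed least in mug27 (0.92), ssp2 (0.97) and the strain labelled atf1 (1.04), and most in mde3 (3.46), ppk13 (3.44) and the strain labelled ppk33 (3.15). The wild type had tps1 at 2.15 at 60 min and 0.85 at 0 min, and ntp1 at 2.73 at 60 min and 0.35 at 0 min.

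Cta3 encodes a cation-transporting ATPase of the P type, and its mRNA is known as a target of the Sty1 pathway in salt stress. Its lowest, median and highest levels were -0.39, 2.51 and 5.40 at 60 min, against -0.90, -0.01 and 1.09 at 0 min. Levels lay close together at 0 min, and the spread was wide at 60 min: the SD over strains was 0.98 at 60 min, above that of 99.5% of genes, and 0.31 at 0 min, above that of 77.9% of genes. The change was 2.48 ± 0.96 (SD, n = 62), a 5.57-fold rise with a limma adjusted p of 1.84e-30. It was positive in 61 of 62 strains, and 5 arrays at 60 min did not exceed the highest array at 0 min. The strain without a rise was cyr1, which lacks adenylate cyclase, with -0.39 at 60 min and 0.07 at 0 min. Next lowest at 60 min were ssp2, which lacks the catalytic subunit of the AMP-activated kinase, at 0.39, and rst2 at 0.42. The highest at 60 min were ppk18 at 5.40, atg1 at 4.77 and wis4 at 4.24. Of these atg1 also led at 0 min, at 1.09, before ppk26 (0.97) and gad8 (0.52), while ppk18 and wis4 did not. The lowest at 0 min were rst2 (-0.90), sck2 (-0.80) and mde3 (-0.48). The values of rst2 and sck2 rested on the first probe, at -1.88 and -1.71, while the second was at 0.09 and 0.12. The smallest changes of cta3 after that of cyr1 were 0.27 in ssp2 and 0.46 in hhp2, and the largest were 5.54 in ppk18, outside the main array series, 4.35 in wis4 and 4.05 in mde3. The wild type had cta3 at 2.73 at 60 min and -0.37 at 0 min, where 3 deletion strains were lower.

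Zym1 encodes a metallothionein, a small protein that binds zinc and other metals. Its lowest, median and highest levels were 0.64, 3.37 and 5.38 at 60 min, against -1.27, -0.06 and 1.67 at 0 min. All but 4 of 62 arrays at 60 min lay above the highest array at 0 min. The change was 3.19 ± 0.97 (SD, n = 62), a 9.10-fold rise with a limma adjusted p of 1.96e-36. It ranked 31 among all 4929 features. The lowest strains at 60 min were the array labelled byr1 at 0.64, wis4 at 0.66 and cgs1 at 1.24, and the highest were cyr1 at 5.38, the array labelled atf1 at 4.65 and mak3 at 4.41. Cyr1 was also the highest at 0 min at 1.67, followed by vps15 at 1.15 and ssp2 at 1.12. The lowest at 0 min were rst2 (-1.27), ppk38 (-0.67) and ppk15 (-0.65). The rst2 value was -1.87 on the first probe and -0.67 on the second. The change was smallest between the arrays labelled byr1 (0.82), in cgs1 (0.98) and in the strain labelled ppk22 (1.14). It was largest between the arrays labelled atf1 (5.11), in ppk15 (4.79) and in ppk13 (4.69). The wild type had zym1 at 2.87 at 60 min, where 20 deletion strains were lower, and 0.52 at 0 min, where 5 were higher.

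Cta3 and zym1 both rose, and several strains lay at opposite ends of their ranges. The cyr1 strain had the lowest cta3 and the highest zym1 at 60 min, and wis4 had the third highest cta3 and the second lowest zym1. The ssp2 strain, with cta3 at 0.39, had zym1 at 4.27. The array labelled byr1 had cta3 at 3.36 and cgs1 had it at 3.46, both above the upper quartile of 2.84, while zym1 was among the 3 lowest in both. Over all strains the levels of the pair gave r = -0.16 and rho = 0.09 at 60 min (n = 62), the lowest r of the 21 pairs, and r = 0.42 at 0 min (n = 63). The rst2 strain was the exception among the cyclic AMP strains, with both genes low at 60 min, cta3 at 0.42 and zym1 at 1.87.

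Ish1 encodes a protein of the nuclear envelope whose level increases in stationary phase and under stress. Its lowest, median and highest levels were 1.22, 3.25 and 4.42 at 60 min, against -1.47, -0.04 and 1.58 at 0 min. The times separated in all but 1 of the 62 arrays at 60 min. The change was 3.19 ± 0.68 (SD, n = 62), a 9.10-fold rise with a limma adjusted p of 9.12e-46, and had a smaller spread than that of zym1 at the same mean. The lowest at 60 min were cgs1 at 1.22, rst2 at 1.67 and the array labelled byr1 at 1.76, and the highest were vps15 at 4.42, ppk27 at 4.23 and ppk26 at 4.13. Vps15 (1.58), ppk26 (1.52) and mug27 (1.43) were the highest at 0 min, and rst2 (-1.47), cek1 (-0.85) and cmk1 (-0.66) the lowest. The change was smallest in cgs1 (1.65), mug27 (1.66) and the strain labelled ppk22 (1.70) and largest in mak3 (4.60), ppk27 (4.57) and the strain labelled ppk33 (4.27). The wild type had ish1 at 3.67 at 60 min and 0.90 at 0 min, where 4 of the 63 deletion strains were higher.

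Rds1, a gene described as regulated by nutrients and temperature, had the smallest change. Its lowest, median and highest levels were -0.91, 1.12 and 2.28 at 60 min, against -0.69, 0.19 and 1.63 at 0 min. The times overlapped in most arrays, 49 of 62. The mean change was 0.82 ± 0.65 (SD, n = 62), a 1.77-fold difference that missed the 2-fold minimum. The limma adjusted p was 3.63e-15, but 87.4% of all genes passed the adjusted p at any size. In 7 of 62 strains rds1 was not higher at 60 min, with changes between -0.59 in the strain labelled byr1 and -0.07 in fin1. The lowest levels at 60 min were those of the array labelled byr1 (-0.91), cgs1 (-0.36) and wis4 (-0.26), and the highest those of vps15 (2.28), mak3 (2.16) and lkh1 (2.04). At 0 min wis4 (-0.69), cgs1 (-0.63) and the strain labelled atf1 (-0.62) were lowest and lkh1 (1.63), srb10 (1.31) and cyr1 (1.22) highest. Wis4 and cgs1 were thus among the 3 lowest at both times. The largest changes were 2.09 in mak3, 1.93 in ppk27 and 1.83 in spo4, and after byr1 the smallest were -0.47 in the strain labelled as srb10 and -0.30 in ppk8. The wild type had rds1 at 1.53 at 60 min and 0.68 at 0 min.

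The 2 probes of rds1 did not report the same pattern. The first probe stayed near 0, between -0.49 and 0.50 at 60 min and between -0.68 and 0.50 at 0 min, and its change was 0.16 ± 0.24 (SD, n = 62). The second probe ranged between -1.46 and 4.32 with a median of 2.30 at 60 min, and between -1.22 and 3.20 with a median of 0.47 at 0 min. Its change was 1.49 ± 1.27 (SD, n = 62), above 2-fold, with a limma adjusted p of 6.51e-14. The 2 probes correlated over strains with r = -0.11 at 60 min (n = 62) and -0.22 at 0 min (n = 63), so the averaged level of rds1 follows the second probe at a smaller size. The 3 lowest strains of the second probe at 60 min were the array labelled byr1 (-1.46), cgs1 (-1.13) and wis4 (-1.03), as for the average. Cta3 showed a milder disagreement: its probes changed by 3.23 and 1.73 and correlated with r = 0.60 at 60 min and 0.25 at 0 min. Cyr1 had the lowest level on both cta3 probes at 60 min, -0.50 and -0.28. For the other 5 genes the probes correlated with r between 0.73 and 0.95 at either time, and the 2 probes of gpd1, for example, changed by 1.46 and 1.57. Which probe of rds1 reports the transcript was not tested.

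**Figure D2:**
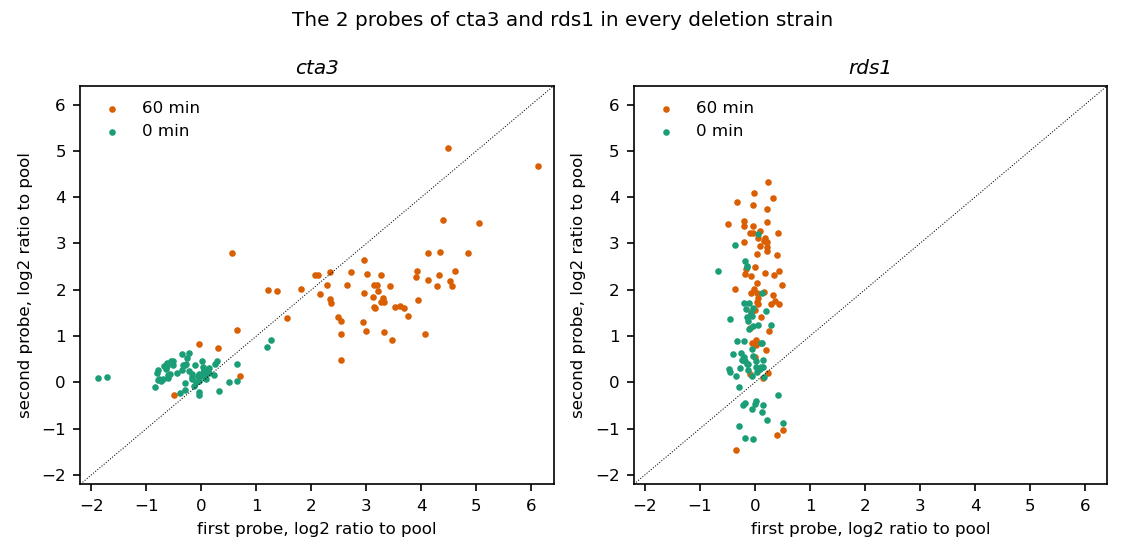
Level on the second probe (vertical axis) against level on the first probe (horizontal axis), both as log2 ratio over the wild-type pool, for cta3 and rds1; each point is 1 deletion strain at 60 min (orange) or 0 min (green), and the dotted line marks equal values. The first probe of rds1 stays between -0.68 and 0.50 while the second spans -1.46 to 4.32; both probes of cta3 are higher at 60 min in most strains.

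In single strains several of the 7 genes lay far from the other strains at once. With 1 array per strain and time, neighbours in the order of strains have no spread of their own, so their distances from the mean of the other strains are given in SD units of those strains, as a description without a test. At 60 min cgs1 was among the 3 lowest strains for 6 of the 7 genes and more than 2 SD below the mean of the others for the same 6. Its distances were -3.5 for ish1, -2.9 for ntp1, -2.7 for tps1, -2.5 for rds1 and -2.1 for both gpd1 and zym1. Cta3 was the exception in cgs1, at 1.0 SD above the mean. At 0 min the cgs1 strain lay more than 2 SD from the others in no gene except tps1, at -0.67, just past -2.0 SD. The 60 min array of cgs1 had a slope of 0.93 for its starvation response over 797 other genes. The deletion arrays had a median slope of 0.98 and a lowest slope of 0.62, that of the array labelled ppk22, with chk1 at 0.77. In the change the slope was 0.65 under the label ppk22 and 0.66 in cyr1, beside a median of 1.01. The part of these weak responses in the low values of such strains was not tested. Cgs1 lies outside the main array series, so array series and genotype cannot be told apart. The share of all features beyond 2 SD is not given for cgs1 or the strains below. Their counts therefore do not show a shift particular to the 7 genes.

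The array labelled byr1 at 60 min had 4 genes more than 2 SD below the others: gpd1 at -7.2 SD, rds1 at -3.5, zym1 at -2.8 and ish1 at -2.5. Tps1, at -0.5 SD, ntp1, at -0.7, and cta3, at 0.9, were inside the range of the other strains. As given above, the atf1 gene was at -3.79 on this array. The wis4 array at 60 min was low for zym1 (-2.8 SD), rds1 (-2.3) and ish1 (-1.9), and high for cta3 (1.9). The rst2 strain was low for ish1, ntp1 and cta3 at 60 min, by -2.6, -2.4 and -2.2 SD, and for ish1, cta3 and zym1 at 0 min, by -3.1, -3.1 and -2.7 SD. The cta3 value of rst2 at 0 min rested on the first probe, at -1.88, while the second was at 0.09. Its zym1 value at 0 min was also lower on the first probe, -1.87, than on the second, -0.67. The 0 min array of rst2 had the widest spread of levels over genes, an SD of 0.74 beside a median of 0.31. The part of this in the low values was not tested.

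Vps15 was more than 2 SD above the others for 5 genes at 0 min, ish1 at 3.2 SD, ntp1 at 2.9, tps1 at 2.7 and gpd1 and zym1 at 2.6 each. At 60 min vps15 was closer to the other strains for these 5, at most 2.0 SD above them, for ish1. The lkh1 strain was above the mean of the others for all 7 genes at 60 min, with tps1 at 3.1 SD and ntp1 at 2.5. Mak3, which lacks a histidine kinase that senses peroxide, was also above the mean for all 7 at 60 min, between 0.1 SD for cta3 and 1.7 for ntp1 and rds1, and its changes were among the 3 largest for gpd1, tps1, ish1 and rds1. The mak2 strain, lacking the related histidine kinase, stayed within 1.1 SD of the others at both times.

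Some strains of stress and growth kinases lay near the others. The srk1 strain, lacking a kinase that Sty1 activates, was within 0.7 SD for all 7 genes at both times. Deletion of pmk1, the MAPK of the cell integrity pathway, gave distances between -0.1 and 1.1 SD. The gsk3 strain was below the mean for all 7 at 60 min, by -0.2 to -1.4 SD. The gad8 strain, lacking a kinase under TOR complex 2, was within 0.9 SD at 60 min and had zym1 at 2.1 SD above the others at 0 min. For wis1 the largest distance was that of tps1 at 60 min, -1.8 SD.

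**Figure D3:**
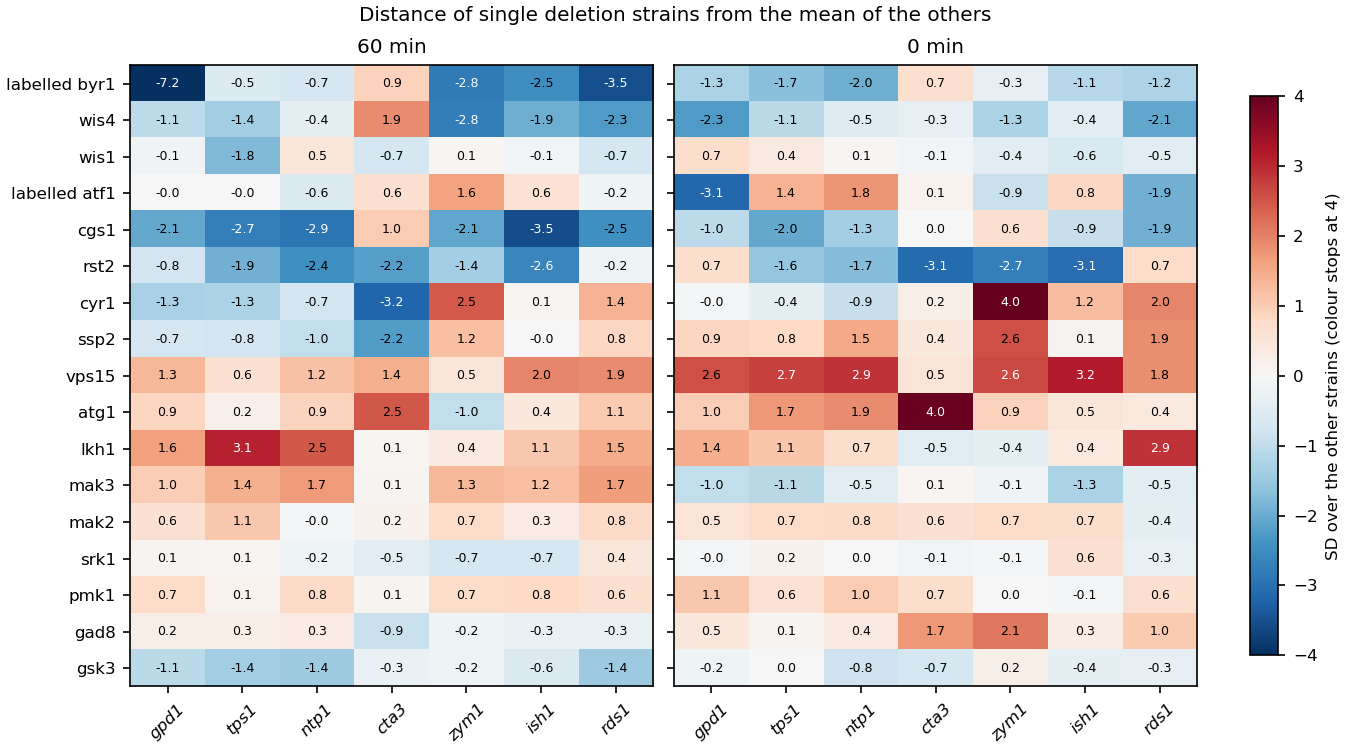
Distance of named deletion strains from the mean of the other strains, in SD over the other strains, at 60 min (left panel) and 0 min (right panel); rows are strains, columns are the 7 genes, blue is lower and red is higher than the others, and the colour scale stops at 4. The cgs1 row is below -2 SD at 60 min for every gene but cta3, and the vps15 row is above 2 SD at 0 min for gpd1, tps1, ntp1, zym1 and ish1.

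Strains of the stress MAPK pathway were compared as a group, because the pathway is known to control several of the 7 genes. The group held wis4, wis1 and the strain labelled atf1 (n = 3). The comparison group held all other deletion strains (n = 60 at 0 min, n = 59 at 60 min and in the change). It included mak2, mak3, srk1 and cmk2, whose genes are in the list of stress MAPK pathway genes given below. By limma with Benjamini-Hochberg adjustment over all features, none of the 7 genes passed an adjusted p of 0.05 at 0 min, at 60 min or in the change. At 60 min the array labelled byr1, with the atf1 gene at -3.79, was in the comparison group. The array labelled atf1, with atf1 at 1.37, was in the pathway group, and the wis1 gene was not low in wis1. The comparisons at 60 min and in the change therefore cannot decide whether loss of the pathway alters the 7 genes. At 0 min the wis1 gene was at 0.11 in the strain labelled wis1, so its loss is not shown there either. The lack of calls at 0 min thus does not decide the question. The background was low as well: 0.101% of genes were called at 0 min, 0% at 60 min and 0.101% in the change, while 305, 419 and 535 genes had an unadjusted p under 0.05.

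At 0 min gpd1 was at -0.91 in wis4, 0.68 in wis1 and -1.32 in the strain labelled atf1, a mean of -0.52 ± 1.06 (SD, n = 3), against 0.33 ± 0.50 (SD, n = 60) in the other strains. The difference was -0.85 (SE 0.30; limma adjusted p = 0.602). Both wis4 and the strain labelled atf1 lay below all 60 other strains, whereas wis1, whose own gene was not low, lay among them. Without wis1 the difference in gpd1 was -1.45 and passed the test with a limma adjusted p of 0.0308. That fit had wis4 and the strain labelled atf1 alone in the group. It called 21 of all 4929 features, beside 5 with all 3 strains. Leaving out wis4 or the strain labelled atf1 in turn gave a call for none of the 7 genes at 0 min, at 60 min or in the change, with gpd1 at -0.65 and -0.45 at 0 min. Rds1 at 0 min was at -0.69, 0.07 and -0.62 in the 3 strains, against a mean of 0.33 ± 0.47 (SD, n = 60) in the others, a difference of -0.74 (SE 0.27; limma adjusted p = 0.611). No other strain was lower than the lowest of the 3 for rds1, but wis1 lay inside their range. For the other 5 genes at 0 min the differences were between -0.43 for zym1 and 0.21 for ntp1.

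At 60 min the 3 arrays disagreed for the metal and ion genes. Zym1 was at 0.66 in wis4, 3.22 in wis1 and 4.65 in the array labelled atf1, against 3.17 ± 0.90 (SD, n = 59) in the other strains, a difference of -0.32 (SE 0.55; limma adjusted p = 0.904). Cta3 was at 4.24, 1.79 and 3.09 in the same order, against 2.44 ± 0.97 (SD, n = 59), a difference of 0.60 (SE 0.56; limma adjusted p = 0.784). For zym1 the 3 arrays spanned nearly the whole range, with 1 other strain below wis4 and 1 above the array labelled atf1. The one below wis4 was the array labelled byr1, at 0.64, on which the atf1 gene was low. For cta3 they overlapped the other strains too, with 10 of those below wis1 and 2 above wis4. The array labelled atf1 does not have atf1 low at this time. Tps1 was lower in the group by -0.40 (SE 0.21; limma adjusted p = 0.591) and rds1 by -0.68 (SE 0.36; limma adjusted p = 0.591), and neither passed. In the change, the differences lay between -0.49 for tps1 and 0.63 for cta3, with limma adjusted p-values of 0.577 and above.

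The 5 genes that did pass at 0 min were outside the set and are named after their values were seen. They were hsp9, a small heat shock protein gene, with a difference of -3.65, gpx1, a glutathione peroxidase gene, with -1.78, grx1, a glutaredoxin gene, with -1.14, agp3 with 0.58 and SPCC1494.08C with 0.66. Hsp9 was at -4.76 in wis4 and -5.16 in the strain labelled atf1, but 0.02 in wis1, against a mean of 0.35 in the other strains.

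The level at 0 min was set against the level at 60 min over 62 strains, to see whether strains with a high basal level also had a high induced level. Over the 7 relations, Pearson's r passed a permutation test (100000 resamples, two-sided) after Benjamini-Hochberg adjustment for 3 genes. For rds1 r was 0.37 (adjusted permutation p = 0.0237), for ish1 0.33 (adjusted permutation p = 0.0353) and for gpd1 0.30 (adjusted permutation p = 0.0474), with unadjusted permutation p of 0.00339, 0.0101 and 0.0203. Spearman's rho was 0.23, 0.15 and 0.20 for these 3 genes, and no rho of the 7 genes passed adjustment, the smallest adjusted permutation p being 0.398. The r of the other 4 genes was 0.20 for tps1, 0.21 for ntp1, and 0.22 for both cta3 and zym1. Genes in general had a median r of 0.30, and the 7 genes stood between the 29.4 and the 63.5 percentile of them. The 3 genes that passed stood at 63.5 (rds1), 55.5 (ish1) and 48.7 (gpd1). The share of all genes passing this test is not given, so no relation particular to the 7 genes is shown.

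These relations were weak and rested in part on single strains. Without the 2 strains farthest from the median 0 min level, r was 0.36 for rds1 (adjusted permutation p = 0.0323). It was 0.28 for gpd1 (adjusted permutation p = 0.0884) and 0.21 for ish1 (adjusted permutation p = 0.258), so only rds1 still passed. The strains left out were lkh1 and srb10 for rds1, vps15 and the strain labelled atf1 for gpd1, and vps15 and ppk26 for ish1. Within the 56 strains of the main array series, r was 0.33 for rds1, 0.29 for gpd1 and 0.23 for ish1, and none of the 7 passed (smallest adjusted permutation p = 0.0965). Without the strains with doubted 60 min labels the call of gpd1 was lost (r = 0.28, adjusted permutation p = 0.0722). Strains with a high basal level had smaller changes, with r between the 0 min level and the change of -0.74 for tps1, -0.66 for ntp1, -0.56 for gpd1, -0.48 for ish1, -0.40 for rds1, -0.28 for zym1 and -0.11 for cta3. The 0 min array enters both of these measures with opposite sign, so this is a description. Vps15 shows it for tps1: 2.18 at 60 min and 1.52 at 0 min, the highest basal level and the smallest change.

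**Figure D4:**
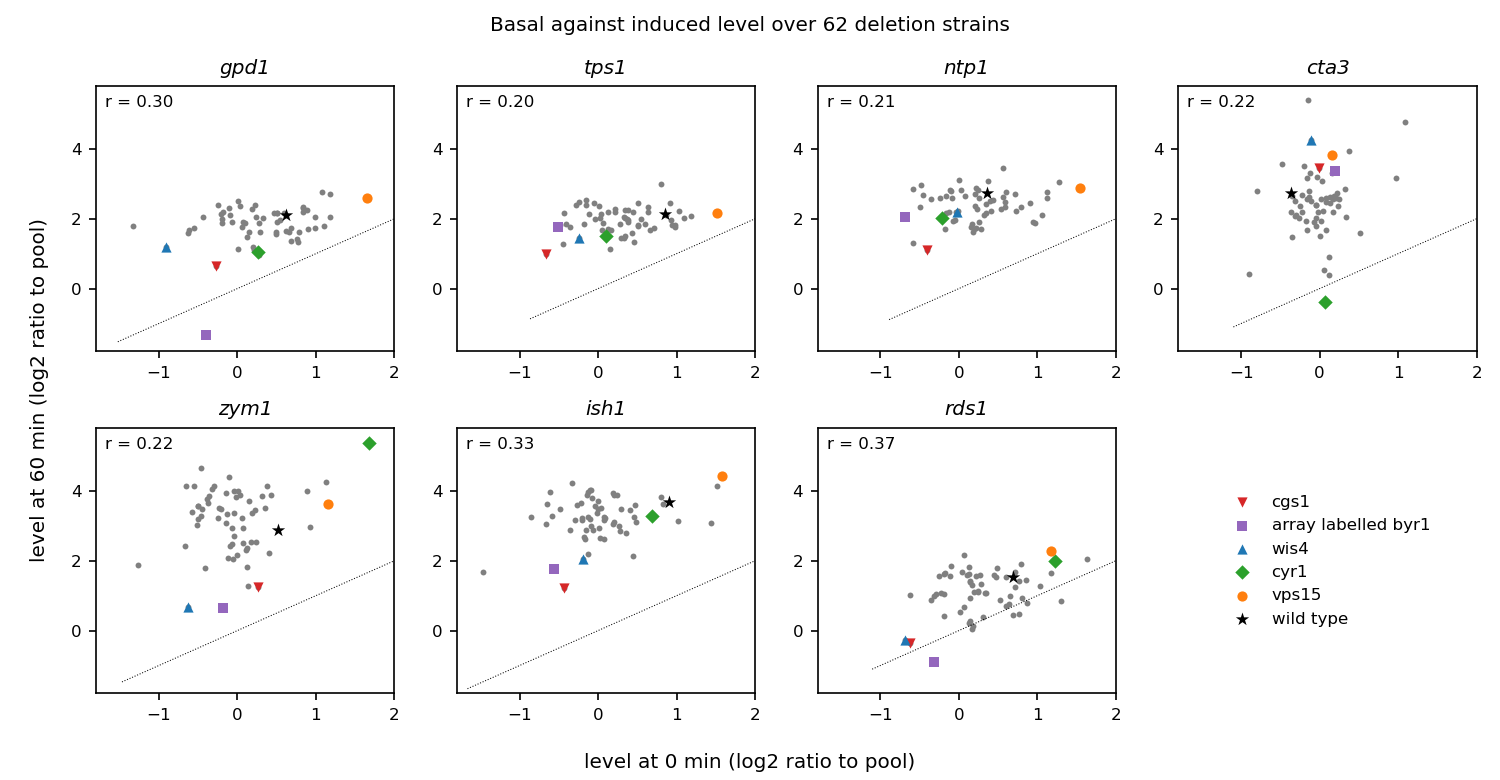
Level at 60 min (vertical axis) against level at 0 min (horizontal axis), both as log2 ratio over the wild-type pool, for the 7 genes; each point is 1 strain, coloured symbols mark single strains and the wild type, the dotted line marks equal levels, and r is Pearson's r over 62 deletion strains. The clouds are broad, with r between 0.20 and 0.37, and nearly all strains lie above the line.

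The 7 genes did not vary as 1 block. Over the 21 pairs, r between levels had a median of 0.55 at 60 min (n = 62, lowest -0.16, highest 0.78) and 0.49 at 0 min (n = 63, lowest 0.25, highest 0.91). The strains of a pair share their arrays, so array-wide shifts enter each r. The closest pairs were gpd1 with rds1 (r = 0.78 at 60 min and 0.84 at 0 min), tps1 with ntp1, and tps1 with ish1 (r = 0.72 at 60 min and 0.83 at 0 min). Zym1 was least like the trehalose genes at 0 min, with r of 0.25 to tps1 and 0.28 to ntp1.

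For each gene the 2 genes outside the set with the highest Pearson's r were sought, over 125 deletion arrays after the mean of each time was taken off. Gpd1 was most like SPAC9E9.04 (r = 0.86) and SPAC26F1.07 (0.80). Tps1 and ntp1 had the same 2, namely tps3, of the trehalose phosphate synthase family (r = 0.86 and 0.82), and psi1, a gene of a DnaJ type chaperone (0.78 and 0.77). For ish1 they were SPAC637.03 (0.83) and the glutathione S-transferase gene gst3 (0.81), and for zym1 SPAC15E1.02C (0.73) and hsp3101 (0.70). The genes most like cta3 were agp3 (0.66) and SPCC584.16C (0.65), a lower likeness than for the other 6 genes. Rds1 was most like plt1 (0.94) and lsd90 (0.74), of which lsd90 changed by 3.92 and plt1 by 0.95.

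Other genes of the same functions gave mixed results. Of 8 other trehalose and glycerol genes, 1 rose and 1 fell by 2-fold or more with a limma adjusted p under 0.05, and the median change was 0.24. The trehalose phosphate synthase-like gene SPAC22F8.05 changed by 2.55 ± 0.76 (SD, n = 62), with means of 2.73 at 60 min and 0.18 at 0 min, a larger rise than that of tps1. Gpd2, which encodes the second glycerol-3-phosphate dehydrogenase, went the other way from gpd1: its change was -1.16 ± 0.24 (SD, n = 62), with means of -1.09 at 60 min and 0.07 at 0 min, and it was higher at 60 min in 0 of 62 strains. Of 14 ion and metal genes, 1 rose, sod2, a sodium and proton antiporter gene (1.29), and 2 fell, the zinc transporter gene zrt1 (-1.90) and hmt2, of sulfide oxidation (-1.08). The median change of this list was 0.08, so the rises of cta3 and zym1 were not shared by most of it.

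Of 20 genes of the stress MAPK pathway, 3 rose and none fell by this rule, with a median change of 0.41. They were srk1 (1.61), atf1 (1.60) and the phosphatase gene ptc1 (1.18). The mRNA of the MAPK sty1 itself changed by 0.13 and that of wis1 by -0.13. Of 13 measured genes in a list of other general stress genes, 7 rose and none fell, with a median of 1.02. The largest were the glutathione S-transferase gene gst2 (2.39), hsp9 (2.33) and gpx1 (1.82). The background for these counts is the same 7.53% of all genes called higher and 16.3% called in either direction.

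**Figure D5:**
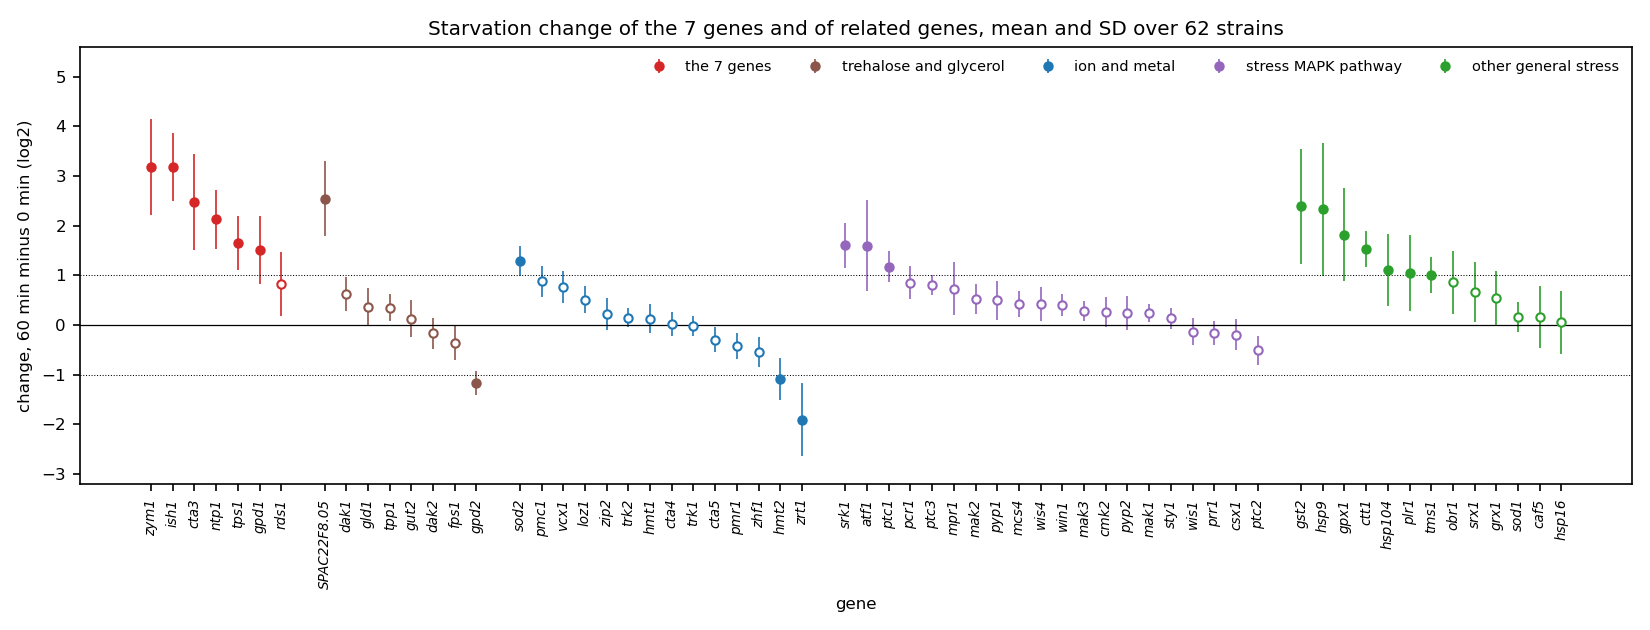
Change, 60 min minus 0 min on the log2 scale (vertical axis), of the 7 genes and of 4 lists of related genes; points are means and bars SD over 62 deletion strains, filled points passed the limma test with at least 2-fold, and dotted lines mark 2-fold. All 7 genes of the set lie above 0, with rds1 under 2-fold at 0.82, and gpd2 falls by 1.16 while gpd1 rises by 1.51.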

How the data were processed

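The deposited table holds a linear ratio per probe and array, strain RNA in Cy5 over the wild-type pool in Cy3 per the labels. How the authors scaled the spots and corrected for background is not given in the sources used here. The median of the deposited ratio on an array was 0.932 to 1.09. Signal over background is not in the table used, so depth is unknown. Of 9858 probes 9632 carried 1 gene symbol, 44 several and 182 none, by the platform annotation; gpd1 was matched by gene identifier, since another gene has this name as a synonym. The 6 values of exactly 0 were set to missing, log2 was taken of the deposited ratios, each array was centred on its median and the probes of a gene were averaged.

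Tests used limma 3.58.1 in R 4.3.3 (lmFit and eBayes over all 4929 features, Benjamini-Hochberg adjustment, adjusted p under 0.05). The starvation change was fitted with the strain as block over 62 strains, since both arrays of a strain share its genotype, with a minimum of 2-fold; deviations of a strain's 2 arrays correlated above 0 in 60 of 62 strains (mean r 0.31). Hal4 has a 0 min array alone and the wild type was kept out of the fits. Permutation tests used scipy 1.17.1. Both kinds of test were tested on simulated data. Apart from the mark nr2 in the title of the 0 min wild-type array, whose meaning is not given, no label speaks of repeated cultures, so p-values measure the spread between strains.

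All 7 genes are named with their lowest, median and highest levels and the 3 lowest and highest strains, and a fixed group of strains is given for each; of related lists the counts and the 3 called genes with the largest change are named. The genes, lists, strains and tests were chosen with earlier results of these data known. No sequence is printed.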

Additional observations from a re-analysis of the deposited data

How the results depend on the processing

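Changes of the 7 genes kept their sign under every alternative run (no centring, mean centring, quantile normalization, either probe alone, the main array series, without the 6 strains with doubted labels, without the non-kinase deletions, no strain block). Quantile normalization, which gives all arrays the same spread, took gpd1 to 0.64 and tps1 to 0.77, under 2-fold, and rds1 to 0.17 (limma adjusted p = 0.127), leaving 4 of the 7 genes called and 478 of all genes in place of 803. All genes called came to 4308 at the adjusted p alone and 268 at 4-fold, where 4 of the 7 remained past the minimum. The fit with no replicate block (the pairing by strain left out) changed no call of the 7, with 6 called.

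For the stress MAPK strains the calls among all genes rest on few arrays. At 0 min (5) they were 8 with quantile normalization, 8 in the main array series, 3 without the doubted strains, 3 at 2-fold, and 3 to 21 when 1 pathway strain was left out, with 0 to 1 of the 7 genes called. At 60 min (0) they were 2 with quantile normalization, 1 on the first probe, 2 without the doubted strains, and 1 to 20 with 1 strain left out. In the change (5) they were 11 with quantile normalization, 3 on the first probe, 0 on the second, 9 in the main array series, 0 without the doubted strains, 3 at 2-fold, and 0 to 11 with 1 strain left out. Genes passing in basal against induced level (3) were 2 without the doubted strains (gpd1 lost, adjusted permutation p = 0.0722), 4 on the second probe (ish1 lost at 0.0508, ntp1 and cta3 gained), 1 without the 2 farthest strains, 0 in the main array series, 0 without the non-kinase deletions and 5 on the first probe. The cause of these shifts was not tested.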

Other observations

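Levels of the 7 genes with nitrogen present correlated with the size of an array's starvation pattern, a relation looked for after the data had been seen. The pattern of an array was the slope of its levels on the mean starvation change over 797 other genes, which was between -0.16 and 0.17 at 0 min and between 0.62 and 1.14 at 60 min. Over 14 relations (7 genes at each time), r at 0 min (n = 63) was between 0.30 for ntp1 and 0.57 for ish1, with adjusted permutation p between 0.00014 and 0.0257. Spearman's rho was between 0.38 for cta3 and 0.54 for ish1, with adjusted permutation p of 0.0033 and below. The other 365 genes called higher, from which the pattern is built in part, had a median r of 0.23 at 0 min (quartiles 0.03 and 0.41) and all 4929 features one of 0.02, beside 0.44 for the 7 genes. Without cyr1 and rst2, the 2 arrays with the most extreme slopes, r was 0.52 for ish1 and 0.25 for zym1, the lowest of the 7, and within the main array series it was 0.52 for ish1 and 0.30 for zym1. At 60 min (n = 62) ish1 (r = 0.51, rho = 0.52) and zym1 (r = 0.50, rho = 0.55) had adjusted permutation p for r of 0.00014 and 0.000385, and r was 0.43 for both without chk1 and ppk22, and 0.49 and 0.60 within the main array series. Tps1 (r = 0.31, rho = 0.34, adjusted permutation p for r = 0.0239) and cta3 (r = 0.27, rho = 0.28, adjusted permutation p for r = 0.0457) also passed, and without chk1 and ppk22 their r was 0.25 and 0.18, and within the main array series 0.24 and 0.23. Gpd1 (r = 0.12, adjusted permutation p = 0.354) and ntp1 (r = 0.19, adjusted permutation p = 0.153) did not pass. The median r at 60 min was 0.27 for the 7 genes and 0.44 for the other 365 genes called higher, so no relation particular to the 7 genes is shown. Rds1 had r = 0.02 and rho = 0.00 at 60 min (adjusted permutation p = 0.904), beside 0.46 and 0.51 at 0 min. The cause was not tested.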
